A study of Homo sapiens with 24 samples.

Results

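The 36 genes described here encode heat shock proteins and chaperonins, the proteins that help other proteins fold, keep unfolded ones from clumping and hand damaged ones on. They were picked by gene symbol from 33382 genes in tables of RNA sequencing of 2 colon cancer lines. Earlier results of these data were known at that choice. The genes were read in 4 sets by where their products act. The cytosolic heat shock set had 17 genes, the cytosolic chaperonin set 7, the mitochondrial set 4 and the endoplasmic reticulum (ER) set 8. All 36 passed the filter on low counts, at between 5 and 3085 counts in the lowest library of each gene.

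SW480 and SW620 are established colon adenocarcinoma lines, taken from a primary tumour and from a lymph node metastasis of the same patient. Each carried a lentivirus with Tet2CD, the catalytic domain of the 5-methylcytosine oxidase TET2, or an empty vector, and both had been selected with 5 µg/ml puromycin. Each of these 4 cell populations was then grown with TGFB1 at 4 ng/ml, with RepSox at 1 µM, an inhibitor of the TGF-beta type I receptor, or with DMSO as the carrier, for 24 h according to the labels. The study's legends for its RNA sequencing of treated cells instead state a mixture of TGF-beta ligands, another dose and a longer time. The labels were followed here. The 12 groups were SW480 Tet2CD with TGFB1, RepSox or DMSO, SW480 vector with TGFB1, RepSox or DMSO, and the same 6 in SW620, with 2 libraries each. The promoter that drove the construct, and whether the selected cells were a clone or a mixed population, were not given in the sources used here. Separate cultures for the 2 libraries of each group are not stated in the labels. The p-values therefore reflect library-to-library spread alone, and that spread may be technical.

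The libraries held between 2146123 and 4410567 expected counts. TET2 was at 23.4 to 500 TPM (transcripts scaled to length and library size) in the 12 Tet2CD libraries, against 1.92 to 4.57 TPM in the 12 vector libraries, which checks the construct labels. The epithelial keratins KRT8 and KRT18 were at 2271 TPM or more in every library. The intestinal genes VIL1 and CDX2 were at 19.3 to 325 TPM and 5.43 to 143 TPM, whereas CDX1 was listed at 0 in 16 libraries. The blood gene HBB was listed at 0 in all 24. The blood, fibroblast and endothelial markers searched reached at most 14.5 TPM (COL1A1). The 3 SW480 Tet2CD replicate 1 libraries (TGFB1, RepSox and DMSO) stood apart: ribosomal protein genes took 10.9 to 16.1% of their counts, against 6.18 to 10.0% in the other 21, and their count-weighted GC content was 52.5 to 53.6%, against 49.5 to 51.7%. TET2 was also lower in them, at 95.6 (TGFB1), 23.4 (RepSox) and 116 TPM (DMSO). In SW480 Tet2CD replicate 2 it was at 500, 291 and 326 TPM. Whether the construct level bears on the Tet2CD changes was not tested. Values are given with all libraries, and for several comparisons also without these 3. In bulk RNA, fewer cells of a type and less RNA per cell cannot be told apart.

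As background, cytosolic heat shock genes are switched on by the factor HSF1, which binds inverted repeats of GAA called heat shock elements. The HSP70 proteins (HSPA1A, HSPA1B, HSPA8 and HSPA4) and HSP90 proteins (HSP90AA1 and HSP90AB1) act with J-domain partners such as DNAJA1 and DNAJB1 and with co-chaperones such as STIP1 and AHSA1, while TCP1 and the CCT genes encode the ring-shaped chaperonin that folds actin and tubulin. In mitochondria, HSPD1 and HSPE1 form another folding chamber, HSPA9 pulls proteins in and TRAP1 is the local HSP90. In the ER, HSPA5 (BiP), HSP90B1, the lectin chaperones CALR and CANX and the disulfide isomerases PDIA3, PDIA4 and PDIA6 fold secreted proteins, and many of their promoters are known to hold an ER stress response element.

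Promoters of some members show these elements in their letters. Several are printed because many cytosolic and ER genes moved in different directions in the comparisons that follow. Whether the elements bear on those directions was not tested. RefSeq windows of 300 bases ran from 250 bases before a start site to 50 bases after it (GRCh38.p14). The set searched held 48 windows of 33 of the 36 members. HSF1, FKBP4 and PDIA3 had no window in that set, which does not show that RefSeq lacks one. The ER element was searched on both strands as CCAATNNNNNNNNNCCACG and occurred in 0.0769% of all 35116 windows. It occurred in at least 1 window of 5 of the 7 ER members with a window and of none of the other members searched. Capitals mark the element in 1 window of each of these 5 members. CANX and PDIA6 also have windows without it.
CALR (chr19:12938359-12938658, plus strand): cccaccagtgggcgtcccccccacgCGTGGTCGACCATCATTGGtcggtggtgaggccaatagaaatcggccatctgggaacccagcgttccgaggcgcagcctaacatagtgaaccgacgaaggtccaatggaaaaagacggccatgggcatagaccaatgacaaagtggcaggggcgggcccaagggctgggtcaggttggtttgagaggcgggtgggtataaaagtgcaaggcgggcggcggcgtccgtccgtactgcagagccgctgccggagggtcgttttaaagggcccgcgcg
HSPA5 (chr9:125241294-125241593, minus strand): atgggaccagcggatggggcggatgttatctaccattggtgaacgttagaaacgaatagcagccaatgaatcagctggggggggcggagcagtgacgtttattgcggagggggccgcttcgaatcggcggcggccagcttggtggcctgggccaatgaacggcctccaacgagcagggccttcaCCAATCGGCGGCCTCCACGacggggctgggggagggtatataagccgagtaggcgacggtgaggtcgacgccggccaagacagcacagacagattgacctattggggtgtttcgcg
HSP90B1 (chr12:103930160-103930459, plus strand): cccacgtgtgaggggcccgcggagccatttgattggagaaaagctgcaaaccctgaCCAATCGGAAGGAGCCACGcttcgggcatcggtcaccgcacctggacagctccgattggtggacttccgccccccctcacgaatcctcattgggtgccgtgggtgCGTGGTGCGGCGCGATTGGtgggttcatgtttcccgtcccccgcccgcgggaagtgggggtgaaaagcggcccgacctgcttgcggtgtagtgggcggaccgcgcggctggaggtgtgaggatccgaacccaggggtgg
PDIA6 (chr2:10812736-10813035, minus strand): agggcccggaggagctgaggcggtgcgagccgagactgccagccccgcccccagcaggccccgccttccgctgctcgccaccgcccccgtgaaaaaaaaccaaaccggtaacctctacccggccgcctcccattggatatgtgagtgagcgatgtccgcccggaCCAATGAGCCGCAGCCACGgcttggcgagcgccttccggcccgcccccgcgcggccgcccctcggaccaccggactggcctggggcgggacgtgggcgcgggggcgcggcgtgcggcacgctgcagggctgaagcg
CANX (chr5:179698537-179698836, plus strand): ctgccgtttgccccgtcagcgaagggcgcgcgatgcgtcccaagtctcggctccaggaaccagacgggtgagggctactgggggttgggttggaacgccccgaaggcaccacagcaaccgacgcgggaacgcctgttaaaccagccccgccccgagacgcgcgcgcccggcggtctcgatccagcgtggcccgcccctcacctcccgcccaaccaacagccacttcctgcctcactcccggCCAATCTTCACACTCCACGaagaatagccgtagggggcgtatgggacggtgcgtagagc

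The heat shock element was searched as a pair of facing or backing units, GAANNTTC or TTCNNGAA, each of which reads the same on both strands. A pair occurred in 13.5% of all windows. Among members with a searched window, at least 1 window held it in 11 of 15 cytosolic heat shock members and 3 of 7 chaperonin members. The same was so for 2 of 4 mitochondrial and 1 of 7 ER members. A member can have several windows, so shares of members and of single windows are unlike measures, also for the triplet. Pairs that share a unit form a triplet, GAANNTTCNNGAA or its complement, which occurred in 0.49% of all windows and in 7 members: HSPA8, HSP90AA1, HSP90AB1, DNAJA1, DNAJB6, CHORDC1 and HSPD1. Capitals mark every pair, overlapping ones included, in the printed windows of HSP70, HSP90 and HSP60 members. Of each gene the window with most pairs is printed. HSP90AA1, HSP90AB1 and HSPD1 also have windows that hold no pair. A match describes letters and not a bound site. The HSPA1B window also held 1 pair, and its longest run shared with the HSPA1A window was 49 bases.
HSPA1A (chr6:31815293-31815592, plus strand): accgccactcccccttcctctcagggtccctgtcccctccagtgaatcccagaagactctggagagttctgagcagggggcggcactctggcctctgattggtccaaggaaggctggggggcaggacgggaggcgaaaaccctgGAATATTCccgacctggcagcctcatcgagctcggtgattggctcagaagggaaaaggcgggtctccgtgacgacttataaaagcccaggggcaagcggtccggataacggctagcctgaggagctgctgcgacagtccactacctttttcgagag
HSPA8 (chr11:123062087-123062386, minus strand): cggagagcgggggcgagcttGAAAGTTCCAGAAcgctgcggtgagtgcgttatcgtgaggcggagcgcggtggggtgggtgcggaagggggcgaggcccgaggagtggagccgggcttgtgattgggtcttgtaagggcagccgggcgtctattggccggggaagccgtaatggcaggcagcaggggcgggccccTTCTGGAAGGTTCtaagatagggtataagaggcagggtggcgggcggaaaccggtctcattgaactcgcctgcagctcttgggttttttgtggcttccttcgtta
HSP90AA1 (chr14:102086995-102087294, minus strand): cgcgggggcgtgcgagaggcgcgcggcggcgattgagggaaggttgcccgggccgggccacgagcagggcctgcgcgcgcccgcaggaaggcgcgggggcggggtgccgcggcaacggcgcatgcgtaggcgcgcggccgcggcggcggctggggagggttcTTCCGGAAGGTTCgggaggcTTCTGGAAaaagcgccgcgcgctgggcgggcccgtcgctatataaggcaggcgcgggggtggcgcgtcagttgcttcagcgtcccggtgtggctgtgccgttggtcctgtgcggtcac
HSP90AB1 (chr6:44247693-44247992, plus strand): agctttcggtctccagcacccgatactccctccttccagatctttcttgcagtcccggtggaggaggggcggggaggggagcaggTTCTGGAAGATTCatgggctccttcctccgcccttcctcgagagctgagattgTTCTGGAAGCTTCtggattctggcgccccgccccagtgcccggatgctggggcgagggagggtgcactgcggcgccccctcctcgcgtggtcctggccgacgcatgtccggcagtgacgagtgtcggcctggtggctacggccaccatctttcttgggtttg
HSPD1 (chr2:197499791-197500090, minus strand): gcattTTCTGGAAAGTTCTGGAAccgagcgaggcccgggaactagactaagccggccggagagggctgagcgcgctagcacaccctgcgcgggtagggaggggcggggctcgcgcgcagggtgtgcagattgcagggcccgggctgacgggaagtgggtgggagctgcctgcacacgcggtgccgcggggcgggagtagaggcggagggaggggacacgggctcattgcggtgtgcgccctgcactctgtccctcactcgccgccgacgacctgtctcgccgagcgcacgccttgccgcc
HSPA9 (chr5:138575352-138575651, minus strand): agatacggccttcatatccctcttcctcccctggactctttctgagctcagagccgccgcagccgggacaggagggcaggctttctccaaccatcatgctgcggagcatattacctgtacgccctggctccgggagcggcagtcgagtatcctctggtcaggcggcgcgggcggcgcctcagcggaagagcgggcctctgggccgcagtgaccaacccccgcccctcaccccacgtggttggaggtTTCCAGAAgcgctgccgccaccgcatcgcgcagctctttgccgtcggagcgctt

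Levels between genes are compared in TPM, which divides by transcript length. The deposited effective length equalled the listed length for every gene in only 22 of the 24 libraries, and its bearing on TPM was not tested. HSPA8, the constitutive HSP70, had a median of 1306 TPM over the 24 libraries, HSP90AB1 had 1156 TPM and the mitochondrial chaperonin HSPD1 had 666 TPM. At the low end were medians of 68.9 TPM for HSPA1A, 64.8 TPM for the HSP90 co-chaperone CHORDC1, 60.5 TPM for HSPA1B, 55.3 TPM for HSF1, 23.4 TPM for BAG3 and 10.2 TPM for DNAJB9, a J-domain partner of HSPA5. Between the 12 group means in TPM, HSF1 varied 1.38-fold, with its lowest mean at 49.1 ± 4.15 TPM in SW620 Tet2CD with RepSox and its highest at 67.9 ± 2.26 TPM in SW620 Tet2CD with DMSO (SD, n = 2 each). HSPA1A varied 10.2-fold over the same groups, DNAJB9 8.95-fold and HSPB1, the small heat shock protein HSP27, 8.49-fold. TPM was not rescaled between libraries as the tested counts were, so the order of groups can differ. In those scaled counts (CPM) the highest HSF1 library was in SW480 Tet2CD, at 110.2 CPM, against at most 83.7 CPM in SW620 Tet2CD. The lowest was in SW480 vector, at 59.4 CPM.

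Summed over each set, the cytosolic heat shock genes came to 4538 to 6393 TPM in the 6 SW480 Tet2CD libraries, against 7242 to 9308 TPM in the 6 SW480 vector libraries, with no overlap. The sums of the chaperonin genes did not overlap either, at 1066 to 1716 TPM in SW480 Tet2CD, against 1911 to 2192 TPM in SW480 vector. For the mitochondrial genes the sums were 730.1 to 1355 TPM in SW480 Tet2CD, against 1624 to 1871 TPM in SW480 vector. The ER genes were the exception: their sums overlapped, at 2228 to 2832 TPM in SW480 Tet2CD and 2248 to 2803 TPM in SW480 vector. All these sums are in TPM, which was not rescaled between libraries as the tested counts were.

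**Figure D1:**
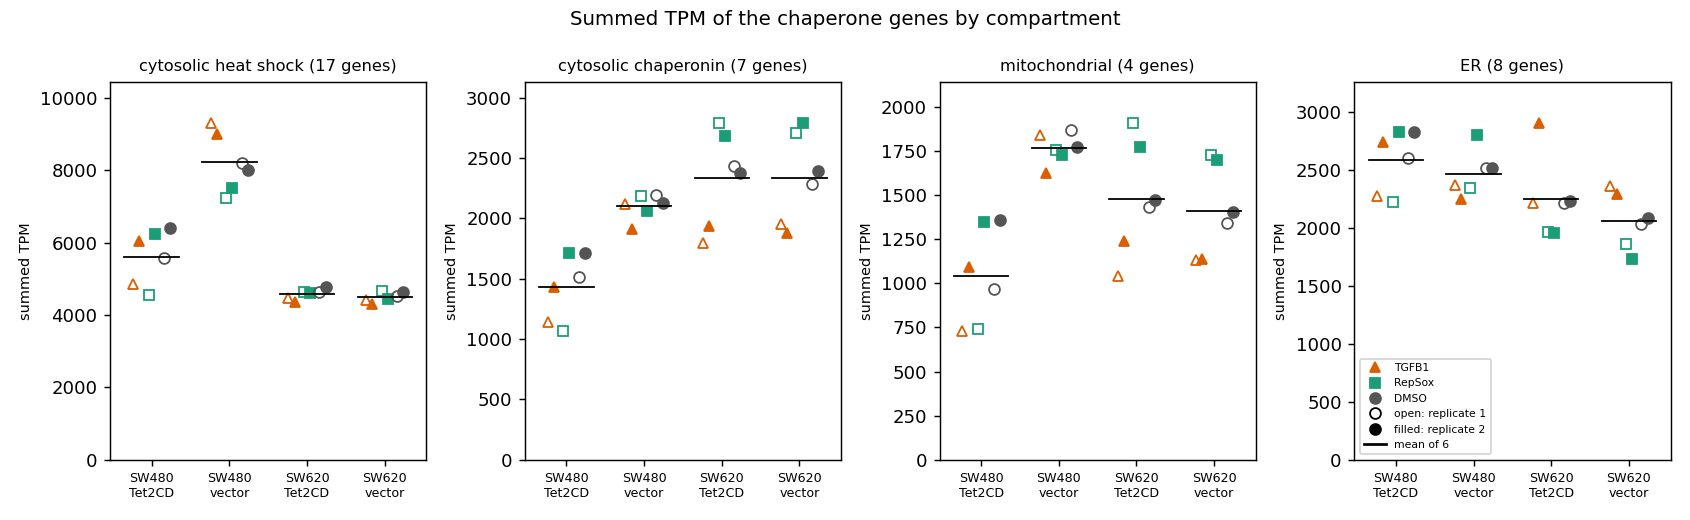
Summed TPM of the members of each set (vertical axis) in each of the 24 libraries, by line and construct (horizontal axis), with the treatment as colour and shape, replicate 1 open, replicate 2 filled and the mean of 6 libraries as a line. SW480 Tet2CD libraries lie below SW480 vector in the cytosolic and mitochondrial sets, at 4538 to 6393 against 7242 to 9308 TPM for the cytosolic heat shock genes.

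The first comparison asked what Tet2CD did to these genes in SW480, over the 3 treatments (6 Tet2CD against 6 vector libraries). Of the 17 cytosolic heat shock genes 7 fell and 3 rose, of the 7 chaperonin genes 4 fell, of the 4 mitochondrial genes 2 fell, and of the 8 ER genes 6 rose and 1 fell. Of 36 members, 9 were higher and 14 lower at an adjusted p under 0.05 (edgeR), while 29.2% of all 15302 genes tested were called higher and 25.3% lower. The median log2 fold change was -0.31 for the cytosolic heat shock set, -0.41 for the chaperonin set, -0.40 for the mitochondrial set and 0.36 for the ER set, beside 0.03 for all genes tested.

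Among the HSP90 genes, HSP90AB1 had 749.8, 993.0 and 1104 CPM (counts scaled to library size, given for the lowest, median and highest library) in SW480 Tet2CD, against 1507, 1661 and 1736 CPM in SW480 vector. All 6 Tet2CD libraries lay below all 6 vector libraries, and the log2 fold change was -0.79 ± 0.09 (SE, with adjusted p = 6.93e-06). Its stress-inducible partner HSP90AA1 fell by 0.66 and the constitutive HSP70, HSPA8, by 0.51 on the log2 scale, both again without overlap. CHORDC1, an HSP90 co-chaperone, fell by 1.28, HSPH1, an HSP70 exchange factor, by 0.58 (by 0.29 without the 3 libraries that stood apart), DNAJA1 by 0.42 and STIP1, which links HSP70 to HSP90, by 0.31. CHORDC1 was at 5 counts in its lowest library, SW480 Tet2CD with RepSox, and fell by 0.71 without those 3. HSPA8, HSPB1 and both HSP90 genes have processed pseudogenes, so part of their reads may have been placed elsewhere.

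HSPA1A and HSPA1B encode the inducible HSP70, lie close together on chromosome 6 and are nearly identical in their coding sequence, so the way reads were divided between them is uncertain. HSPA1A had 158.7, 235.2 and 309.0 CPM (lowest, median, highest) in SW480 Tet2CD, against 138.3, 153.8 and 188.0 CPM in SW480 vector, a rise of 0.56 ± 0.17 (log2, SE; adjusted p = 0.0112) that was 0.60 without the 3 libraries and, after a correction for GC content, 0.21 and past no threshold. HSPA1B went the other way in level, with 145.0, 156.5 and 176.5 CPM in SW480 Tet2CD, against 183.5, 204.7 and 220.3 CPM in SW480 vector (log2 fold change -0.35 ± 0.15, adjusted p = 0.0625 by edgeR). HSPA1B was called lower after the correction for GC content and in a fit of SW480 libraries alone. Added together, the pair had 313.7, 390.8 and 475.1 CPM in SW480 Tet2CD, against 321.9, 361.5 and 408.3 CPM in SW480 vector, and these ranges overlap.

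HSF1 itself had 62.2, 78.5 and 110.2 CPM in SW480 Tet2CD, against 59.4, 64.1 and 71.0 CPM in SW480 vector. The 3 highest values, 89.4, 108.5 and 110.2 CPM, were those of the 3 libraries that stood apart. The change was 0.37 ± 0.15 (log2, SE; adjusted p = 0.048 by edgeR), but it was -0.01 without those libraries and -0.22 after a correction for GC content, and its call was lost in 21 of 24 fits that each left out 1 library. HSPB1 showed the same dependence, at 986, 1818 and 778 CPM in the replicate 1 libraries with TGFB1, RepSox and DMSO, at 302, 441 and 400 CPM in replicate 2, and at 313 to 487 CPM in SW480 vector, so that its change of 0.93 became -0.09 without the 3.

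All 4 called members of the chaperonin ring were lower. CCT5 had 260.0, 330.1 and 398.2 CPM in SW480 Tet2CD, against 432.0, 474.9 and 500.4 CPM in SW480 vector, with no overlap, and fell by 0.54 ± 0.08 (log2, SE; adjusted p = 0.000104). CCT2 fell by 0.52, TCP1 by 0.42 and CCT8 by 0.41, while CCT3, CCT4 and CCT7 had log2 fold changes of -0.16, -0.02 and 0.10 with no call. In mitochondria, HSPD1 had 451.9, 574.8 and 663.8 CPM in SW480 Tet2CD, against 849.4, 949.7 and 1066 CPM in SW480 vector, again without overlap (log2 fold change -0.75 ± 0.09, adjusted p = 1.51e-05). HSPA9 fell by 0.58, whereas TRAP1 at -0.23 and HSPE1 at 0.10 were not called. HSPD1 and HSPE1 lie on opposite strands of chromosome 2 and overlap in the annotation, and whether counting used the strand was not given, so reads in the overlap cannot be told apart.

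In the ER set CALR, a calcium-binding lectin chaperone, had 680.8, 950.4 and 1370 CPM in SW480 Tet2CD, against 380.2, 563.4 and 608.3 CPM in SW480 vector. Every Tet2CD library was above every vector library, and the rise was 0.94 ± 0.13 (log2, SE; adjusted p = 3.01e-05), or 0.62 without the 3 libraries. HSPA5 had 635.8, 746.5 and 786.5 CPM in SW480 Tet2CD, against 484.7, 567.9 and 631.0 CPM in SW480 vector, which do not overlap, for a rise of 0.35 ± 0.10 (adjusted p = 0.00928). PDIA3 rose by 0.51, HSP90B1 by 0.42, PDIA4 by 0.31 and PDIA6 by 0.27. DNAJB9, at 0.37, was not called. The rise of HSP90B1 was 0.23 with no call without the 3 libraries, and that of PDIA4 lost its call in 21 of 24 fits that each left out 1 library.

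CANX, the membrane-bound relative of CALR, went against the rest of its set. It had 525.2, 779.9 and 929.6 CPM in SW480 Tet2CD, against 999.3, 1049 and 1203 CPM in SW480 vector, with no overlap, and fell by 0.51 ± 0.14 (log2, SE; adjusted p = 0.00635), or by 0.24 without the 3 libraries. Its window, printed above, holds the same ER element as those of CALR, HSPA5, HSP90B1 and PDIA6, which rose. PDIA4 was also called higher, and none of its windows holds the element. Of the 7 members with a heat shock triplet, 6 fell here, beside the 25.3% of all genes called lower, and DNAJB6 was not called (-0.14). DNAJA1, among those 6, was not called after the correction for GC content. Members with a pair and no triplet went both ways. HSPA1A and HSPB1 were called higher, and HSPA9, STIP1, CCT2, TCP1 and CANX lower. DNAJB1, HSPA1B and CCT4 were not called. With the correction for GC content, HSPA1A, HSPB1, CCT2 and TCP1 lost their calls.

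**Figure D2:**
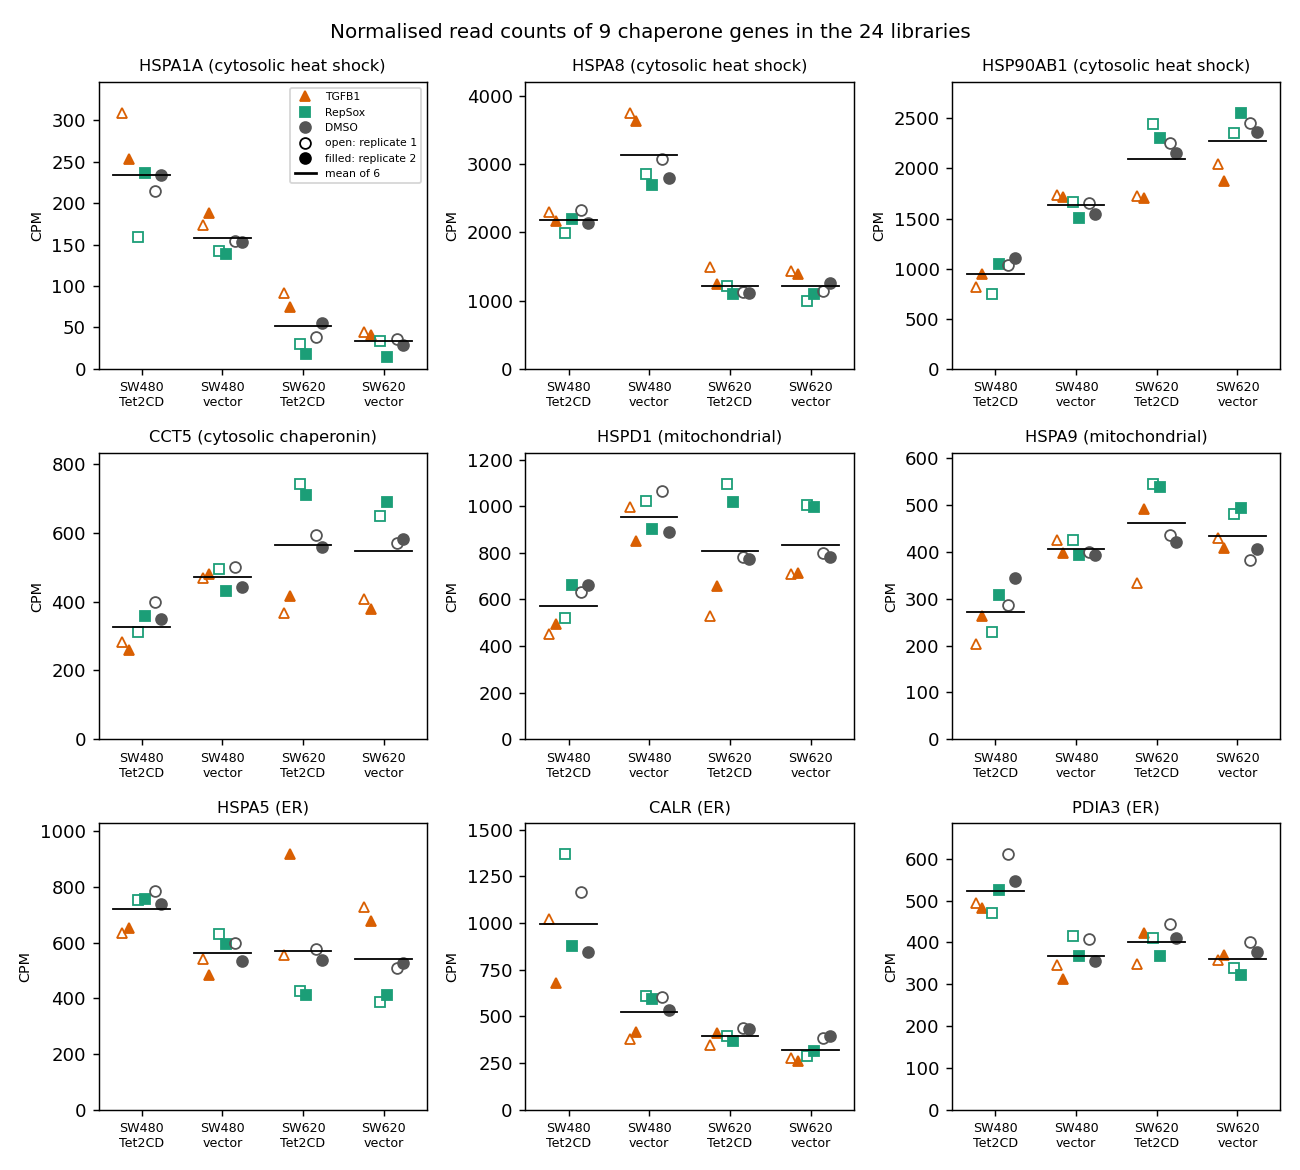
CPM (vertical axis, from 0) of 9 members in each of the 24 libraries by line and construct (horizontal axis), with treatment as colour and shape, replicate 1 open, replicate 2 filled and the mean of 6 libraries as a line. HSPA8, HSP90AB1, CCT5, HSPD1 and HSPA9 lie lower and HSPA5, CALR and PDIA3 higher in SW480 Tet2CD than in SW480 vector in every library, for example CALR at 680.8 to 1370 against 380.2 to 608.3 CPM.

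Without the 3 libraries, in a fit where each SW480 Tet2CD group had 1 library that is assumed to vary like the other groups, 6 members were higher and 20 lower, beside 18.1% and 19.9% of all genes. The set medians were then -0.29 (cytosolic heat shock), -0.41 (chaperonin), -0.48 (mitochondrial) and 0.41 (ER). In 4 fits, namely with all libraries, without the 3, with SW480 libraries alone and with a correction for GC content, 8 members were lower in each (HSPA8, HSP90AA1, HSP90AB1, STIP1, CHORDC1, CCT5, HSPD1 and HSPA9) and 3 were higher in each (HSPA5, CALR and PDIA3). With the correction for GC content the set medians were -0.14 (cytosolic heat shock), -0.09 (chaperonin), -0.42 (mitochondrial) and 0.64 (ER), and the falls of CCT2, TCP1, CCT8, DNAJA1 and HSPH1 were no longer called. The part that composition of the libraries plays in the remaining changes was not tested.

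**Figure D3:**
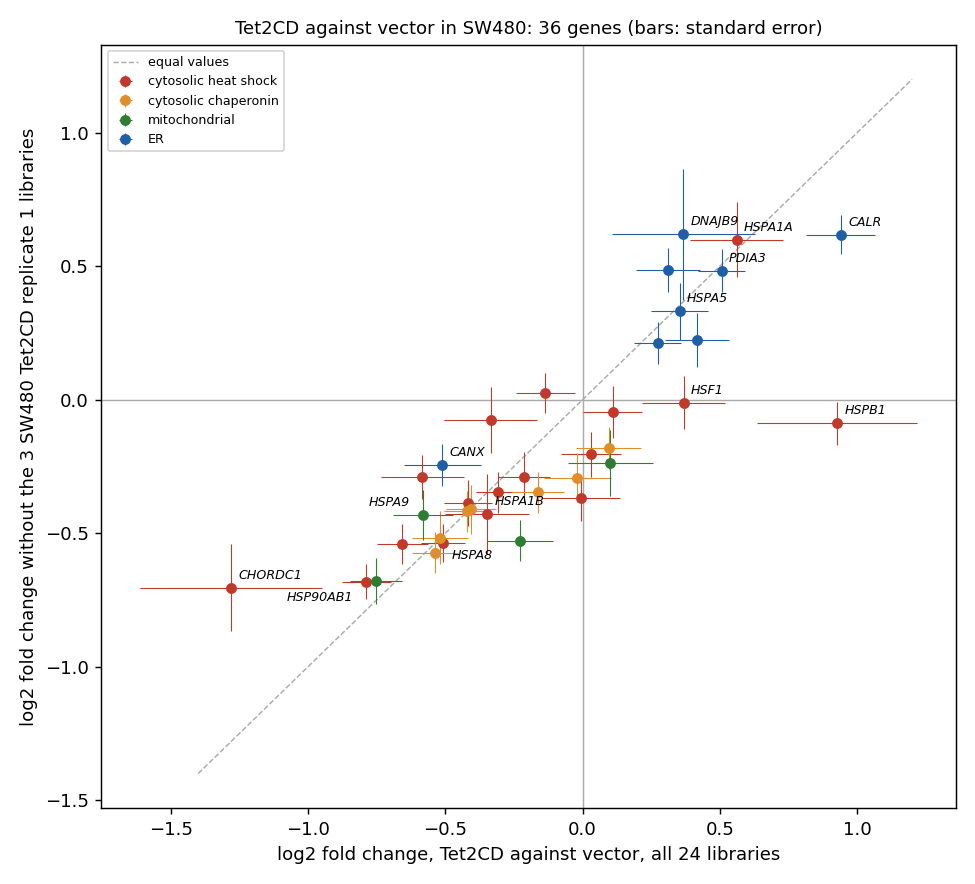
Log2 fold change of each of the 36 members for Tet2CD against vector in SW480 with all 24 libraries (horizontal axis) and without the 3 SW480 Tet2CD replicate 1 libraries (vertical axis), coloured by set, with standard errors as bars and equal values as a dashed line. HSPB1 (0.93 against -0.09) and HSF1 (0.37 against -0.01) lie far from the line, while most ER genes stay above 0 and the other sets mostly below it on both axes.

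Other chaperone and folding genes came from a list of which 66 could be tested. In this comparison 22 of them were higher and 19 lower, beside 29.2% and 25.3% of all genes. The 3 with the smallest p among those that rose all act in the ER: CRELD2 (log2 fold change 1.70), SIL1, an exchange factor of HSPA5 (1.34), and P4HB, a disulfide isomerase (0.85). Among those that fell were CCT6A, another subunit of the chaperonin ring (-0.46), the HSP90-binding immunophilin FKBP5 (-0.80) and EDEM1, which marks misfolded ER glycoproteins for disposal (-1.01). Of the 34 cytosolic genes on this list 12 rose and 8 fell, with a median log2 fold change of 0.18. Of its 24 ER genes, 8 rose and 7 fell, with a median log2 fold change of 0.02.

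In SW620 none of the 36 members was called for the same construct with edgeR or with DESeq2, 4 had an unadjusted p under 0.05, and 0.274% of all genes were called higher and 0.0392% lower. HSPD1 had 530.5, 777.4 and 1097 CPM in SW620 Tet2CD, against 709.5, 789.1 and 1004 CPM in SW620 vector, and HSPA5 had 411.0, 548.1 and 918.9 CPM in SW620 Tet2CD, against 388.7, 518.3 and 728.1 CPM in SW620 vector. Both pairs of ranges overlap, as they did for all 36 members. The share of all genes with such an overlap was not computed.

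Inducible HSP70 in SW620 was at 18.0, 47.3 and 91.8 CPM of HSPA1A with Tet2CD, against 14.2, 34.7 and 44.3 CPM with vector (log2 fold change 0.50 ± 0.18, adjusted p = 0.482 by edgeR). The neighbouring HSPA1B was at 34.8, 45.4 and 101.6 CPM in SW620 Tet2CD, against 21.3, 37.7 and 43.3 CPM in SW620 vector (0.51 ± 0.16, adjusted p = 0.358 by edgeR). HSF1 overlapped too, at 61.9, 70.0 and 83.7 CPM in SW620 Tet2CD, against 61.0, 69.9 and 81.2 CPM in SW620 vector. A fit of the 12 SW620 libraries alone called FKBP4 (0.32), HSPE1 (0.34), CALR (0.33) and AHSA1 (0.24) higher and no member lower, beside 2.74% and 1.87% of all genes.

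The construct effects of the lines were then compared directly, as the effect in SW480 minus the effect in SW620. Of the members, 11 were more negative and 2 more positive in SW480, beside 9.93% and 10.2% of all genes. The 11 were HSP90AA1 (-0.77), HSP90AB1 (-0.66), HSPA8 (-0.51), DNAJA1 (-0.52), STIP1 (-0.43), HSPA1B (-0.86), CCT5 (-0.57), CCT2 (-0.48), TCP1 (-0.40), HSPD1 (-0.69) and HSPA9 (-0.66), which cover the cytosolic and mitochondrial sets and leave out the ER. The 2 were CALR (0.62) and PDIA3 (0.36), both of the ER, and in 24 fits that each left out 1 library the PDIA3 call was lost in 21 and the CALR call in 9. HSF1 differed by 0.35 ± 0.21 and HSPA1A by 0.07 ± 0.25, with no call. Without the 3 libraries that stood apart, 18 members were more negative and 2 more positive, beside 12% and 7.54% of all genes, and the 2 were again CALR (0.29) and PDIA3 (0.32).

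**Figure D4:**
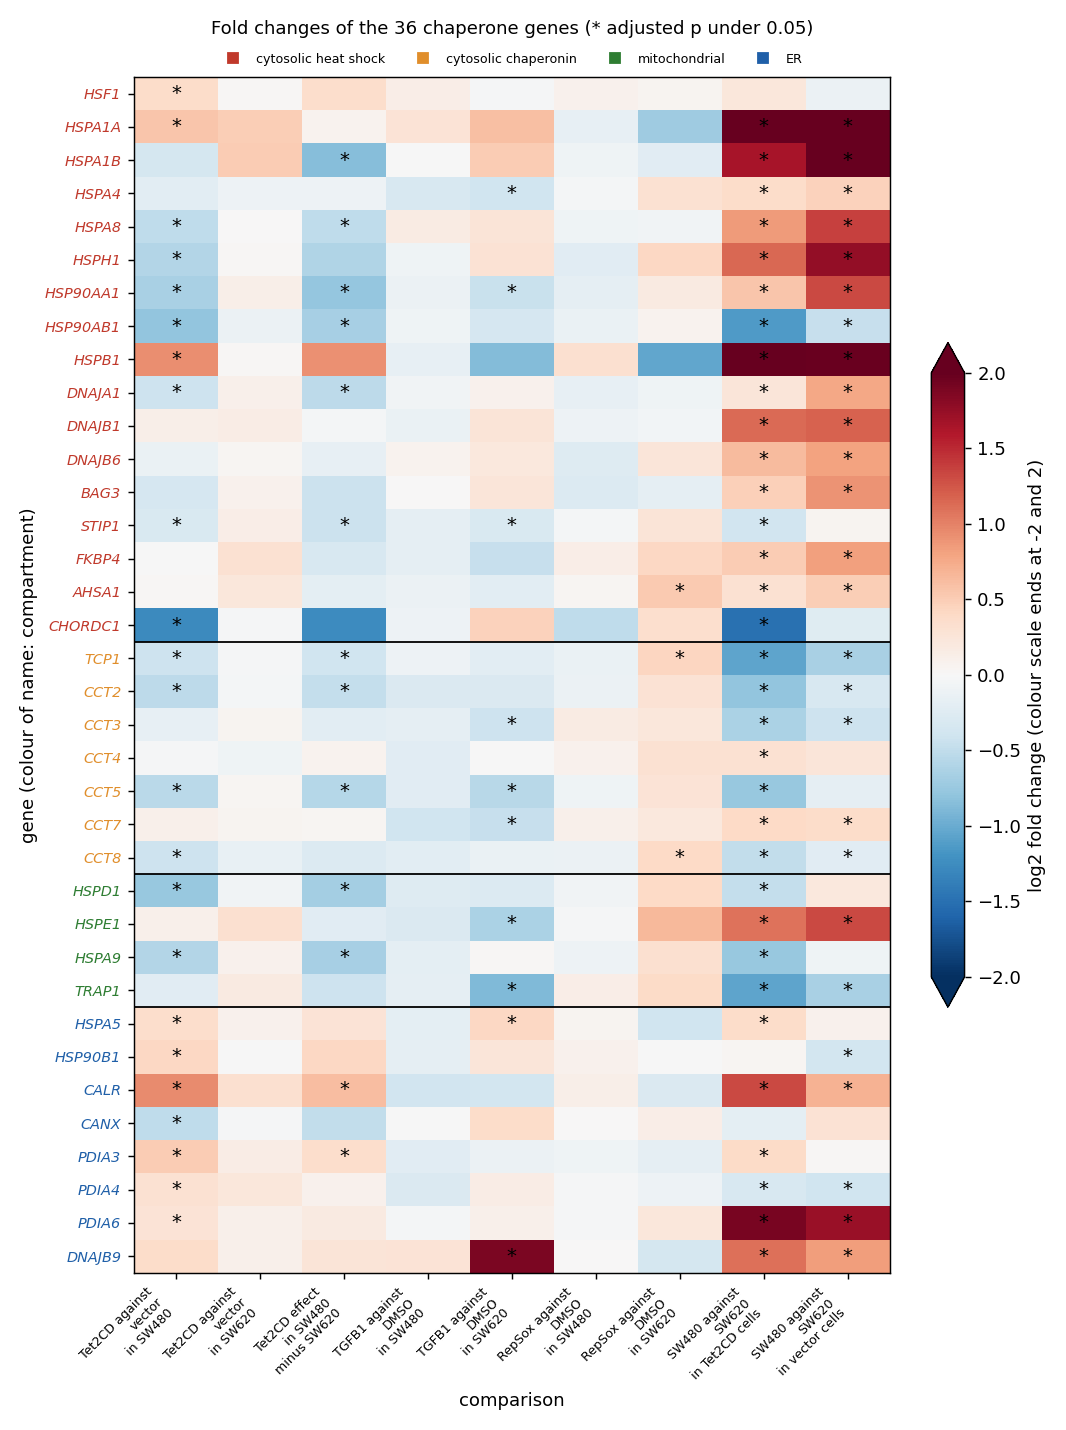
Log2 fold change (colour, with the scale ending at -2 and 2) of the 36 members (rows, grouped by set) in 9 comparisons (columns), with a star where the adjusted p was under 0.05. The SW480 Tet2CD column holds stars for 14 lower and 9 higher members, 6 of the 9 in the ER, whereas the SW620 Tet2CD column holds no star.

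TGFB1 was compared with DMSO within each line, over both constructs (4 against 4 libraries). In SW620 it changed 10 members, 2 higher and 8 lower, beside 8.31% and 7.27% of all genes. The chaperonin set had a median log2 fold change of -0.28 and the mitochondrial set one of -0.45, against 0.20 for the ER set, 0.09 for the cytosolic heat shock set and 0.01 for all genes.

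In the ER of SW620 cells, DNAJB9 was at 10.9 and 30.2 CPM in Tet2CD cells and 22.0 and 21.8 CPM in vector cells with TGFB1, against 5.46 and 3.96 CPM in Tet2CD cells and 5.26 and 8.50 CPM in vector cells with DMSO. All 4 TGFB1 libraries were above all 4 DMSO libraries, for a rise of 1.88 ± 0.34 (log2, SE; adjusted p = 0.00125), at between 17 and 97 counts a library. HSPA5 rose by 0.42 ± 0.13 (adjusted p = 0.0314), with 557.1 and 918.9 CPM in Tet2CD cells and 728.1 and 679.8 CPM in vector cells with TGFB1, against 578.3 and 539.1 CPM in Tet2CD cells and 509.4 and 527.3 CPM in vector cells with DMSO. Its lowest TGFB1 library overlaps the DMSO libraries, and its call was lost in 17 of 24 fits that each left out 1 library.

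Lower with TGFB1 were genes of all 3 other sets in SW620. TRAP1 had 201.5 and 208.8 CPM in Tet2CD cells and 176.5 and 169.2 CPM in vector cells with TGFB1, against 375.0 and 361.9 CPM in Tet2CD cells and 310.4 and 346.3 CPM in vector cells with DMSO (log2 fold change -0.89 ± 0.15, adjusted p = 0.000684). CCT5 had 365.6 and 416.6 CPM in Tet2CD cells and 406.2 and 379.7 CPM in vector cells with TGFB1, against 592.9 and 558.2 CPM in Tet2CD cells and 569.7 and 580.3 CPM in vector cells with DMSO (-0.55 ± 0.10, adjusted p = 0.00133). Both genes were lower in all 4 TGFB1 libraries than in any DMSO library. HSP90AA1 had 906.9 and 870.1 CPM in Tet2CD cells and 826.1 and 841.1 CPM in vector cells with TGFB1, against 1141 and 1193 CPM in Tet2CD cells and 1204 and 1144 CPM in vector cells with DMSO (-0.44 ± 0.11, adjusted p = 0.0133), and these did not overlap either. HSPE1 fell by 0.63, CCT7 by 0.47, CCT3 by 0.42, HSPA4 by 0.40 and STIP1 by 0.31.

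The inducible and regulatory genes moved less clearly with TGFB1 in SW620. HSPA1A was at 91.8 and 74.9 CPM in Tet2CD cells and 44.3 and 40.9 CPM in vector cells with TGFB1, against 39.0 and 55.7 CPM in Tet2CD cells and 35.9 and 29.3 CPM in vector cells with DMSO (0.60 ± 0.22, adjusted p = 0.0727 by edgeR). HSPA1B was at 101.6 and 49.8 CPM in Tet2CD cells and 43.3 and 40.7 CPM in vector cells with TGFB1, against 46.4 and 39.2 CPM in Tet2CD cells and 38.1 and 35.2 CPM in vector cells with DMSO (0.51 ± 0.20, adjusted p = 0.0875 by edgeR). The Tet2CD replicate 1 library with TGFB1 held the highest value of both. HSPD1 had 530.5 and 659.6 CPM in Tet2CD cells and 709.5 and 714.9 CPM in vector cells with TGFB1, all below the 771.3 to 798.4 CPM with DMSO (-0.27 ± 0.11, adjusted p = 0.128 by edgeR). HSF1 was at 61.9 and 83.7 CPM in Tet2CD cells and 61.0 and 68.8 CPM in vector cells with TGFB1, against 73.7 and 73.2 CPM in Tet2CD cells and 70.9 and 61.6 CPM in vector cells with DMSO (-0.02 ± 0.18).

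More members passed in SW620 in fits with fewer SW480 libraries, and the cause was not tested. With the 12 SW620 libraries alone, 10 members were higher and 16 lower with TGFB1, beside 20.2% and 21.1% of all genes, and without the 3 SW480 Tet2CD replicate 1 libraries 8 were higher and 16 lower, beside 16% and 18.6%. The SW620 libraries alone added HSPA1A (0.60), HSPA1B (0.51) and CANX (0.36), among others, to those that rose and HSPB1 (-0.87), FKBP4 (-0.47), CALR (-0.38), HSP90AB1 (-0.34) and HSPD1 (-0.27), among others, to those that fell. Of the 7 chaperonin genes 5 fell in that fit and none rose.

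Among the 66 other folding genes tested, TGFB1 in SW620 raised 8 and lowered 3, beside 8.31% and 7.27% of all genes. The smallest p among those that rose belonged to HERPUD1 (log2 fold change 1.66), the HSPA5 co-chaperone DNAJC3 (1.18) and SYVN1, the ubiquitin ligase of ER-associated degradation (0.81), and 6 of the 8 were ER genes. FKBP5 (-0.77), CCT6A (-0.40) and HSPA14 (-0.46) fell.

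RepSox in SW620, compared with the same DMSO libraries, raised 3 members and lowered none, beside 2.01% and 2.68% of all genes, and 17 members had an unadjusted p under 0.05. AHSA1, which activates HSP90, had 178.7 and 175.7 CPM in Tet2CD cells and 152.8 and 155.7 CPM in vector cells with RepSox, against 128.6 and 120.8 CPM in Tet2CD cells and 103.7 and 110.0 CPM in vector cells with DMSO (log2 fold change 0.52 ± 0.13, adjusted p = 0.035). TCP1 had 433.2 and 407.3 CPM in Tet2CD cells and 411.3 and 413.9 CPM in vector cells with RepSox, against 315.2 and 305.0 CPM in Tet2CD cells and 310.4 and 310.3 CPM in vector cells with DMSO (0.42 ± 0.10, adjusted p = 0.0209). All RepSox libraries of both genes were above all DMSO libraries. CCT8 rose by 0.39, a call that was lost in 22 of 24 fits that each left out 1 library, and without any 1 of the 8 SW620 DMSO and RepSox libraries or of the 2 vector TGFB1 libraries at most 1 member was called.

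The chaperonin set had a median log2 fold change of 0.29 with RepSox in SW620 and the mitochondrial set one of 0.39, against -0.14 for the ER set, 0.07 for the cytosolic heat shock set and 0.01 for all genes. HSPD1 had 1097 and 1016 CPM in Tet2CD cells and 1004 and 995.1 CPM in vector cells with RepSox, all above the 771.3 to 798.4 CPM with DMSO (0.39 ± 0.11, adjusted p = 0.0624 by edgeR). HSPA5 had 426.0 and 411.0 CPM in Tet2CD cells and 388.7 and 413.9 CPM in vector cells with RepSox, all below the 509.4 to 578.3 CPM with DMSO (-0.39 ± 0.13, adjusted p = 0.0985 by edgeR). HSPA1A had 29.6 and 18.0 CPM in Tet2CD cells and 33.4 and 14.2 CPM in vector cells with RepSox (-0.71 ± 0.23, adjusted p = 0.0919 by edgeR), against 39.0 and 55.7 CPM in Tet2CD cells and 35.9 and 29.3 CPM in vector cells with DMSO. HSPA1B had 34.8 and 44.4 CPM in Tet2CD cells and 21.3 and 37.2 CPM in vector cells with RepSox (-0.22), and HSF1 had 66.9 and 64.7 CPM in Tet2CD cells and 76.9 and 81.2 CPM in vector cells with RepSox (0.05), neither of them called.

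With the 12 SW620 libraries alone, RepSox raised 15 members and lowered 4, beside 9.99% and 10.5% of all genes. These were 5 of 7 chaperonin genes, all 4 mitochondrial genes (HSPE1 by 0.62, HSPD1 by 0.37, TRAP1 by 0.36 and HSPA9 by 0.30) and 6 cytosolic heat shock genes among those that rose, and HSPB1 (-1.06), HSPA1A (-0.71), HSPA5 (-0.41) and CALR (-0.30) among those that fell. HSPB1 was lower with TGFB1 and lower with RepSox, at 95.6 and 92.5 CPM in Tet2CD cells and 76.1 and 82.3 CPM in vector cells with TGFB1, and at 66.6 and 74.7 CPM in Tet2CD cells and 75.1 and 89.4 CPM in vector cells with RepSox, against 151.3 to 165.0 CPM with DMSO. Because both treatments were set against the same 4 DMSO libraries, their values are given side by side and no overlap was computed. Of the other folding genes, CCT6A (0.45), the mitochondrial import factor GRPEL1 (0.47) and the HSP90-binding cyclophilin PPID (0.43) rose and DNAJB2 fell by 1.33.

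**Figure D5:**
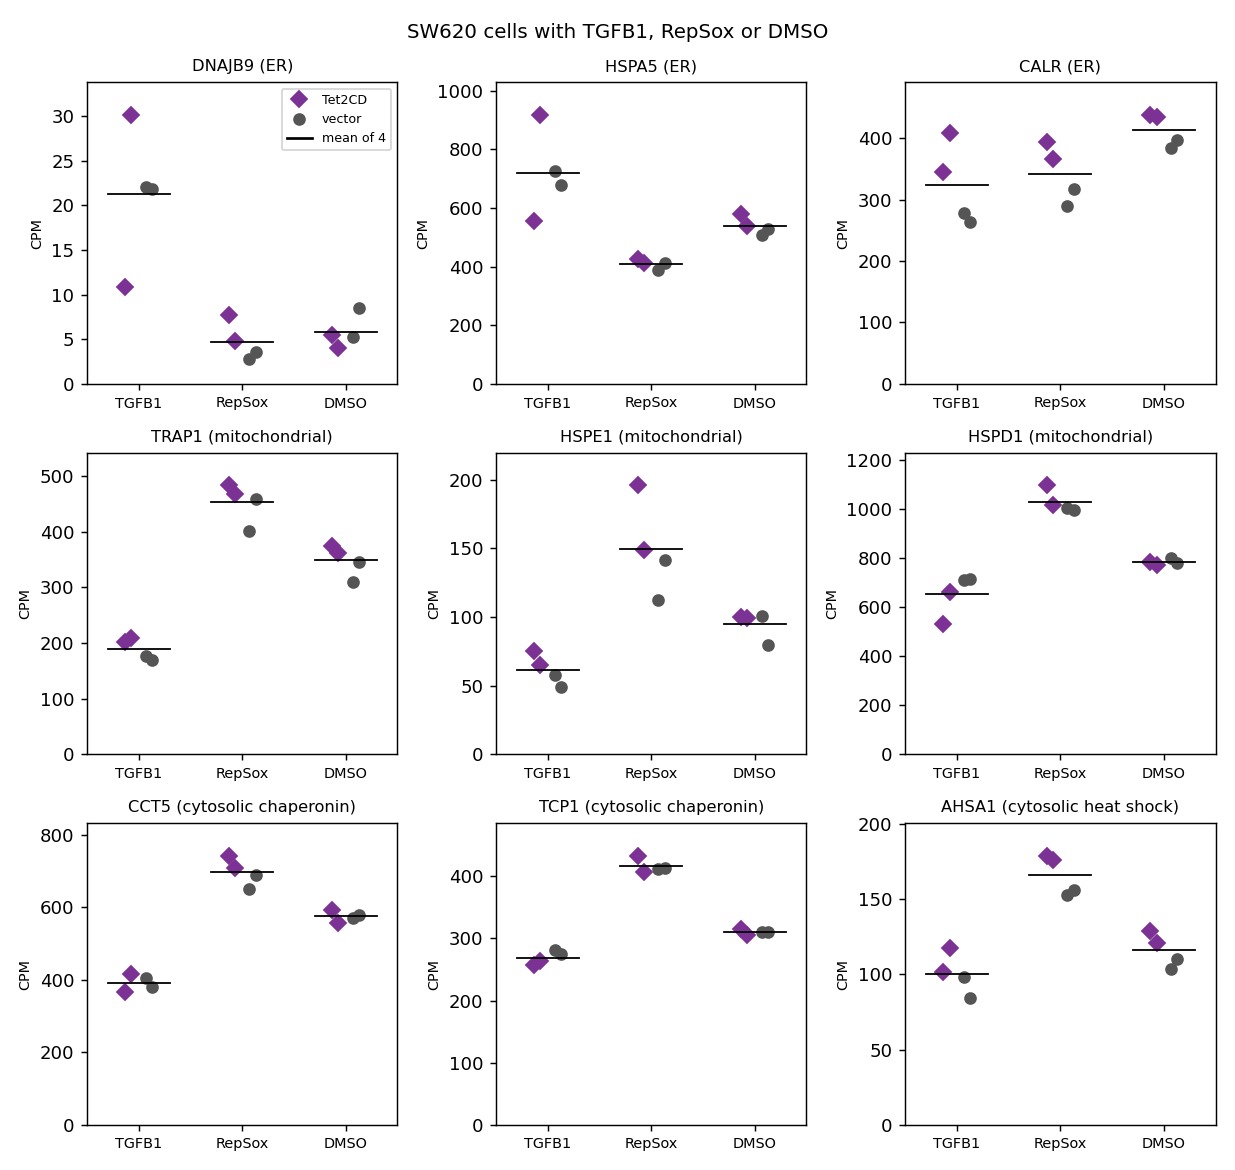
CPM (vertical axis, from 0) of 9 members in the 12 SW620 libraries with TGFB1, RepSox or DMSO (horizontal axis), Tet2CD as diamonds, vector as circles and the mean of 4 libraries as a line. TRAP1, HSPE1, HSPD1 and CCT5 lie below DMSO with TGFB1 and above it with RepSox in all 4 libraries of each, for example TRAP1 at 169.2 to 208.8 and 401.8 to 483.6, against 310.4 to 375.0 CPM.

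With all libraries SW480 gave no call for either treatment. With TGFB1 none of the 36 members passed with edgeR or with DESeq2, 7 had an unadjusted p under 0.05, and 0.732% of all genes were called higher and 0.314% lower. The medians were -0.22 for the chaperonin set and -0.23 for the mitochondrial set, and all 36 genes overlapped between TGFB1 and DMSO libraries. Overlap was not computed for genes outside the 36. Without the 3 libraries that stood apart HSPB1 (-0.44), CCT7 (-0.48) and CALR (-0.42) were lower and no member was higher, beside 3.16% and 3.19% of all genes. With RepSox in SW480 none of the members passed with either tool, none had an unadjusted p under 0.05, and 0% of all genes were called higher and 0% lower.

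HSPD1 in SW480 was at 451.9 and 496.0 CPM in Tet2CD cells and 995.7 and 849.4 CPM in vector cells with TGFB1, at 518.5 and 663.8 CPM in Tet2CD cells and 1024 and 903.6 CPM in vector cells with RepSox, and at 631.2 and 661.8 CPM in Tet2CD cells and 1066 and 888.1 CPM in vector cells with DMSO. HSPA5 was at 635.8 and 652.8 CPM in Tet2CD cells and 540.0 and 484.7 CPM in vector cells with TGFB1, against 786.5 and 738.8 CPM in Tet2CD cells and 597.6 and 533.9 CPM in vector cells with DMSO (-0.19 ± 0.13). With TGFB1, HSPA5 lay below DMSO in Tet2CD cells and overlapped it in vector cells.

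Direct tests of the difference between lines called no member for either treatment, with edgeR. For TGFB1, 0.902% of all genes had a more positive response in SW480 and 1.17% a more negative one, 5 members had an unadjusted p under 0.05, and DESeq2 called 3. HSPA5 differed by -0.61 ± 0.18 (adjusted p = 0.0953 by edgeR) and DNAJB9 by -1.60, while of the other folding genes DNAJC3 (-1.29) and HERPUD1 (-1.50) did pass. For RepSox, 0.699% of all genes were more positive and 0.327% more negative in SW480, 14 members had an unadjusted p under 0.05, and DESeq2 called 3. Without the 3 libraries that stood apart, the response to TGFB1 was called more positive in SW480 for HSPB1 (0.45) and TRAP1 (0.64) and more negative for HSPA5 (-0.56) and DNAJB9 (-1.49), beside 4.83% and 3.58% of all genes. The response to RepSox was then more positive for HSPB1 (0.98) and more negative for HSPH1 (-0.56) and TCP1 (-0.44), beside 2.24% and 1.42%.

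Within SW480, whether Tet2CD altered the response to a treatment was tested as Tet2CD minus vector. For TGFB1 and for RepSox no member was called by edgeR or DESeq2, with 3 and 0 members at an unadjusted p under 0.05. Of all genes, 0.0131% were called higher and 0% lower for TGFB1, and 0% and 0% for RepSox.

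SW480 and SW620 differed in these genes already without Tet2CD. In vector cells, 18 members were higher and 8 lower in SW480 than in SW620, beside 28.9% and 30% of all genes. The cytosolic heat shock set leaned to SW480, with 13 of 17 higher and 1 lower and a median log2 fold change of 0.81, while the chaperonin set leaned to SW620, with 4 of 7 lower and a median of -0.23, and the median of all genes was -0.04.

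Inducible HSP70 stood out in vector cells. HSPA1A had 138.3, 153.8 and 188.0 CPM (lowest, median, highest) in SW480, against 14.2, 34.7 and 44.3 CPM in SW620, and HSPA1B had 183.5, 204.7 and 220.3 CPM in SW480, against 21.3, 37.7 and 43.3 CPM in SW620. The log2 differences were 2.29 ± 0.18 (adjusted p = 1.27e-08) and 2.51 ± 0.16 (adjusted p = 9.91e-10), and the summed pair, at 321.9 to 408.3 CPM in SW480 and 51.4 to 87.7 CPM in SW620, does not depend on how reads were divided. HSPA8 had 2688, 2963 and 3749 CPM in SW480, against 996.7, 1196 and 1431 CPM in SW620 (1.37 ± 0.08, adjusted p = 3.42e-10). HSF1 overlapped between the lines, at 59.4, 64.1 and 71.0 CPM in SW480 and 61.0, 69.9 and 81.2 CPM in SW620 (-0.12 ± 0.15, adjusted p = 0.512 by edgeR).

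Also higher in SW480 vector cells were HSPB1 (1.98), HSPH1 (1.75), HSP90AA1 (1.32), DNAJB1 (1.17), BAG3 (0.91), FKBP4 (0.81), DNAJB6 (0.81), DNAJA1 (0.77), AHSA1 (0.50) and HSPA4 (0.47). HSP90AB1, the constitutive HSP90, went the other way, with 1507, 1661 and 1736 CPM in SW480, against 1878, 2360 and 2553 CPM in SW620 (-0.47 ± 0.09, adjusted p = 0.000265). The 2 cytosolic HSP90 genes thus differed between the lines in opposite directions, without overlap of the libraries for either.

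Of the chaperonin genes TCP1 had 188.6, 206.9 and 244.8 CPM in SW480 vector cells, against 275.1, 310.3 and 413.9 CPM in SW620 vector cells (-0.66 ± 0.08, adjusted p = 3.21e-06). CCT3 (-0.42), CCT2 (-0.31) and CCT8 (-0.23) were also lower in SW480, although leaving out 1 library at a time lost the CCT8 call in 21 of 24 fits and the CCT2 call in 12, and CCT7, at 369.0, 517.2 and 582.8 CPM in SW480 against 270.4, 407.3 and 508.6 CPM in SW620, was higher (0.37 ± 0.12, adjusted p = 0.0134). The mitochondrial genes split. HSPE1 had 177.7, 209.2 and 255.4 CPM in SW480, against 49.0, 90.2 and 141.5 CPM in SW620 (1.32 ± 0.16, adjusted p = 1.96e-06), and TRAP1 had 162.1, 189.3 and 205.1 CPM in SW480, against 169.2, 328.4 and 457.9 CPM in SW620 (-0.64 ± 0.12, adjusted p = 0.000211). HSPD1, the partner of HSPE1 in the folding chamber, was at 849.4, 949.7 and 1066 CPM in SW480 and 709.5, 789.1 and 1004 CPM in SW620 (0.21 ± 0.09, adjusted p = 0.0629 by edgeR).

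In the ER, PDIA6 had 333.7, 366.9 and 386.5 CPM in SW480 vector cells, against 101.2, 109.6 and 121.3 CPM in SW620 vector cells, with no overlap (1.73 ± 0.09, adjusted p = 4.21e-11). CALR (0.69) and DNAJB9 (0.83) were higher too, and HSP90B1 was lower (-0.37). PDIA4, another isomerase, had 179.0, 232.0 and 281.8 CPM in SW480, against 262.4, 293.0 and 335.4 CPM in SW620 (-0.40 ± 0.12, adjusted p = 0.00751). HSPA5 was at 484.7, 567.9 and 631.0 CPM in SW480 and 388.7, 518.3 and 728.1 CPM in SW620 (0.09 ± 0.10). Of the 66 other folding genes 13 were higher and 13 lower, beside 28.9% and 30% of all genes. PDCL3, DNAJB2 and SERPINH1 (1.22, 1.61 and 0.67) led the higher, and XBP1, HSF2 and DNAJA2 (-1.38, -1.82 and -0.69) led the lower.

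In Tet2CD cells 21 members were higher and 12 lower in SW480, beside 36.4% and 35.2% of all genes. Without the 3 libraries that stood apart, 17 were higher and 11 lower in Tet2CD cells, beside 34.6% and 33.3% of all genes, and 21 higher and 8 lower in vector cells, beside 36.3% and 33.4%. In Tet2CD cells FKBP4 (0.50 with all libraries, 0.19 without the 3) and AHSA1 (0.30 and 0.12) lost their calls. HSPA1A was at 158.7, 235.2 and 309.0 CPM in SW480 Tet2CD, against 18.0, 47.3 and 91.8 CPM in SW620 Tet2CD (2.35 ± 0.18, adjusted p = 7.33e-09), and HSPA1B at 145.0, 156.5 and 176.5 CPM in SW480 Tet2CD, against 34.8, 45.4 and 101.6 CPM in SW620 Tet2CD (1.65). HSPB1 (2.89, or 1.92 without the 3 libraries), DNAJB1 (1.14), HSPH1 (1.15) and HSPA8 (0.86) were higher. HSP90AB1 had 749.8, 993.0 and 1104 CPM in SW480 Tet2CD, against 1704, 2203 and 2443 CPM in SW620 Tet2CD, which is a lower level by 1.13 on the log2 scale (adjusted p = 1.27e-08), and CHORDC1 (-1.49, or -0.86 without the 3 libraries) and STIP1 (-0.38) were lower as well.

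Chaperonin and mitochondrial genes were mostly lower in SW480 Tet2CD than in SW620 Tet2CD. TCP1 was at 134.5, 157.0 and 184.4 CPM in SW480, against 257.2, 310.1 and 433.2 CPM in SW620 (-1.05 ± 0.08, adjusted p = 1.07e-08), and CCT2 (-0.79), CCT5 (-0.76), CCT3 (-0.63) and CCT8 (-0.50) followed. CCT4 (0.30) was higher, as was CCT7, at 331.9, 518.7 and 671.1 CPM in SW480 against 289.3, 403.4 and 496.8 CPM in SW620 (0.40). Without the 3 libraries no chaperonin gene was called higher, with CCT4 at 0.08 and CCT7 at 0.18, and CCT4 also lost its call in 6 of 24 fits that each left out 1 library. TRAP1 was at 109.5, 157.6 and 223.5 CPM in SW480, against 201.5, 368.4 and 483.6 CPM in SW620 (-1.05 ± 0.12, adjusted p = 9.14e-07). HSPE1 was at 140.3, 227.3 and 290.1 CPM in SW480, against 64.7, 99.7 and 196.1 CPM in SW620, and was higher (1.09). HSPA9 (-0.76) and HSPD1 (-0.48) were lower, and HSPD1 was at 451.9, 574.8 and 663.8 CPM in SW480 against 530.5, 777.4 and 1097 CPM in SW620.

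In the ER of Tet2CD cells, PDIA6 was at 397.5, 442.4 and 498.6 CPM in SW480, against 101.7, 118.4 and 133.5 CPM in SW620 (1.90 ± 0.09, adjusted p = 1.49e-11). CALR (1.31), DNAJB9 (1.10), PDIA3 (0.38) and HSPA5 (0.37) were higher and PDIA4 was lower (-0.32), at 195.6, 295.9 and 330.8 CPM in SW480 against 305.3, 336.4 and 434.9 CPM in SW620. PDIA4 was at -0.10 with no call without the 3 libraries, and its call was lost in 7 of 24 fits that each left out 1 library. HSPA5 was at 635.8, 746.5 and 786.5 CPM in SW480 and 411.0, 548.1 and 918.9 CPM in SW620, where the SW620 library with 918.9 CPM was 1 of those with TGFB1. Of the 66 other folding genes 24 were higher and 24 lower in this comparison, beside 36.4% and 35.2% of all genes. DNAJB2 (2.34), CRELD2 (1.95) and PDCL3 (1.21) were at the head of the higher. DNAJA2 (-0.997), XBP1 (-1.32) and the mitochondrial unfoldase CLPX (-1.20) were at the head of the lower.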

How the data were processed

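RNA from 24 libraries of SW480 and SW620 cells, in 12 groups of 2, was prepared with a TruSeq kit. The authors quantified each library with RSEM and Bowtie and deposited expected counts and TPM per gene. The submitters' notes name build mm10, but every gene identifier is human, and the sources used here gave no versions. The study's methods also name a normalization for GC content, and whether the deposited values carry it is not known. The strand setting of the counting was not given. The TPM values deposited by the authors are per transcript length and were used only to compare levels.

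After rounding to whole numbers, the expected counts were fitted with edgeR 4.0.16 (R 4.3.3), with TMM scaling, its filter on low counts by group and the quasi-likelihood test. The design held 12 group means over all 24 libraries, with 12 residual degrees of freedom. Of 33382 genes 15302 were tested, and p-values were adjusted by Benjamini and Hochberg over all of them with a threshold of 0.05. Standard errors are the fold change over the root of the test's F. Total counts ran from 2146123 to 4410567, and the common coefficient of variation was 21.3%. Symbols were found for 32481 genes. The test was checked on simulated data.

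The members, the other folding genes and the tests were chosen with earlier results of these data known. All 36 members are accounted for. Library values are printed for HSF1, HSPA1A, HSPA1B, HSPD1, HSPA5 and the member with the smallest p in each set and direction, and up to 3 other folding genes are named per comparison and direction. Alternatives were DESeq2 1.42.0, relative log expression scaling, no filter, an offset for GC content, a term for the library number set, fits of 1 line alone, DMSO or vector cells alone, and fits without 1 library or without the 3 that stood apart. Promoter windows came from RefSeq. Protein sequences were not used here.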

Additional observations from a re-analysis of the deposited data

Results flagged for a closer look

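The effect of Tet2CD differed between SW480 and SW620 for 13 of the 36 members, each tested as an interaction in the edgeR fit and adjusted over all genes. The difference in log2 fold change, SW480 minus SW620, was negative for 6 cytosolic heat shock genes: -0.857 for HSPA1B, -0.768 for HSP90AA1, -0.664 for HSP90AB1, -0.521 for DNAJA1, -0.509 for HSPA8 and -0.433 for STIP1. It was negative for 3 chaperonin genes, at -0.573 for CCT5, -0.476 for CCT2 and -0.397 for TCP1, and for 2 mitochondrial genes, at -0.686 for HSPD1 and -0.665 for HSPA9. It was positive for 2 ER genes, at 0.621 for CALR and 0.357 for PDIA3. The PDIA3 call was lost in 21 and the CALR call in 9 of 24 fits that each left out 1 library. The adjusted p ran from 0.00122 (HSP90AA1) to 0.0464 (PDIA3). The HSPA1B value rests on how reads were divided with HSPA1A.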

How the results depend on the processing

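The number of members called, out of 36, is given for each setting that moved it by over 1.5 times, and the cause was not tested. With relative log expression scaling RepSox in SW620 gave 1. With no filter on low counts the line differences in the response to TGFB1 and to RepSox gave 1 each. With the GC offset RepSox in SW620 gave 5 and the line difference for TGFB1 gave 2. Without the 3 SW480 Tet2CD replicate 1 libraries, Tet2CD in SW620 gave 2, the line difference for Tet2CD 20, TGFB1 in SW480 3, TGFB1 in SW620 24, RepSox in SW620 17, and the line differences for TGFB1 and RepSox 4 and 3. With the libraries of 1 line alone, SW620 gave 4 for Tet2CD, 26 for TGFB1 and 19 for RepSox. From DMSO libraries only, Tet2CD in SW480 gave 5 and its line difference 0. From vector cells only, TGFB1 in SW620 gave 2 and RepSox 0. DESeq2 gave 9 for RepSox in SW620 and 3 for each line difference in treatment response.

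Leaving out each of the 24 libraries in turn gave 20 to 24 members for Tet2CD in SW480, 0 in SW620 and 10 to 20 for the line difference, with 20 without SW480 Tet2CD RepSox replicate 2. TGFB1 gave 0 to 1 in SW480, with 1 without SW480 Tet2CD TGFB1 replicate 1, and 5 to 15 in SW620, with 5 or 6 without any 1 of the 4 SW620 DMSO libraries, the 2 vector TGFB1 libraries or Tet2CD TGFB1 replicate 1. RepSox gave 0 in SW480 and 0 to 6 in SW620, with 6 without SW480 Tet2CD RepSox replicate 1 or 2. The line differences for TGFB1 and RepSox gave 0 to 2 and 0 to 6, with the 6 without SW480 Tet2CD RepSox replicate 2. SW480 against SW620 gave 23 to 28 in vector cells and 30 to 34 in Tet2CD cells, and the construct differences in treatment response 0.

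Single genes that changed sign were HSF1 for Tet2CD in SW480 (-0.22 with the GC offset, adjusted p = 0.0499 by edgeR, and -0.011 without the 3 libraries), HSPB1 in the same comparison (-0.088 without the 3 libraries), and CCT8 with the GC offset (0.003 for Tet2CD in SW480 and 0.01 for SW480 against SW620 in Tet2CD cells). No paired analysis was possible because the labels give running library numbers and no replicate numbers that tie libraries to a shared culture or day. A term for the lower against the higher library numbers left 23 members called for Tet2CD in SW480, 15 for its line difference, 10 for TGFB1 and 4 for RepSox in SW620, and the same number as without the term in each other comparison. At 17 counts or fewer in their lowest library, DNAJB9 and CHORDC1 were limited by depth.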
